A study of Mus musculus with 6 samples.

Results

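Brush border peptidases are the membrane enzymes with which enterocytes finish the digestion of dietary protein. The genes examined were Mep1a, Mep1b, Anpep, Dpp4, Enpep, Ace, Xpnpep2, Ggt1 and Naaladl1, 9 in all. Members were taken as every probe set whose platform annotation names 1 of these genes and no other, which gave 13 of the 45101 probe sets on the array and covered 8 of the 9 genes. Ggt1, a gamma-glutamyl transferase, is not analysed here. Mep1a and Ace each had 2 probe sets, Dpp4 had 4 and the other 5 genes had 1.

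Jejunum (the mid small intestine) came from 3 wild type mice (numbered 1, 3 and 4) and 3 double knockout mice (numbered 1, 2 and 3) that lacked both TIS7 (Ifrd1) and SKMc15 (Ifrd2), which the series title calls regulators of transcription. All 6 mice were C57BL/6 males, aged 7 to 10 weeks per the labels, housed singly on a high fat diet with 42% of its energy from milk fat and 0.2% from cholesterol, so the diet itself was not compared. The labels give a feeding period of 3 to 8 weeks and 3 weeks for the tissue used, and do not say how the alleles were made or in which cells they act. One Affymetrix whole-genome array was hybridised per animal. The title of the series names lipid absorption and obesity, not protein digestion.

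Protein that leaves the stomach is cut by pancreatic enzymes in the lumen, and the resulting peptides are shortened at the microvillus surface. Endopeptidases cut inside the chain, aminopeptidases and dipeptidyl peptidases remove residues from the amino end, and carboxydipeptidases work from the other end. The products enter the enterocyte as free amino acids or as dipeptides and tripeptides, the latter through the transporter Slc15a1.

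Of these enzymes, only Mep1a, the alpha subunit of the endopeptidase meprin, passed the test as lower in the double knockout jejunum. It did so on the brighter of its 2 probe sets, and lost the call in 9 of 18 alternative fits. Both Ace probe sets were lower on every double knockout array than on any wild type array but did not pass the test, and the values of the remaining 6 genes overlapped between the groups. All 13 probe sets lay above a log2 level of 4 on at least 3 arrays and were tested with limma. At an adjusted p of at most 0.05, 1 of the 13 was lower and 0 were higher, beside 1.93% lower and 2.54% higher (4.47% in all) of the 18013 probe sets tested; 4 of the 13 had an unadjusted p under 0.05, all of them lower, beside 27.1% in either direction over the array. The groups did not overlap, with the double knockout lower, on 4 of 13 probe sets, beside 14.8% of all probe sets; 19.5% of all, and none of the 13, did not overlap with the double knockout higher (34.3% in either direction).

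Differences below are double knockout minus wild type on the log2 scale, and 12 of the 13 were negative. Represented by their brightest probe sets, 7 of 8 genes had a negative difference, with a median of -0.22 (-0.21 without Mep1a), while the median over all 9674 genes tested was 0.05 and 41.9% of them were negative. The median of the 8 genes lay between -0.33 and -0.16 when 1 mouse at a time was left out, and was -0.14 with the mouse number as a block, a fit that rests on the 4 mice numbered 1 and 3. When the mean level of the enterocyte markers was subtracted from each array, it was -0.07 and the median over all genes 0.20; such a subtraction moves all genes on an array alike, so the members' distance from the other genes, -0.28, is the same by construction. Under that scaling 6 of 8 genes were negative. In pieces of tissue, fewer cells of a type and less RNA per cell cannot be told apart.

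**Figure D1:**
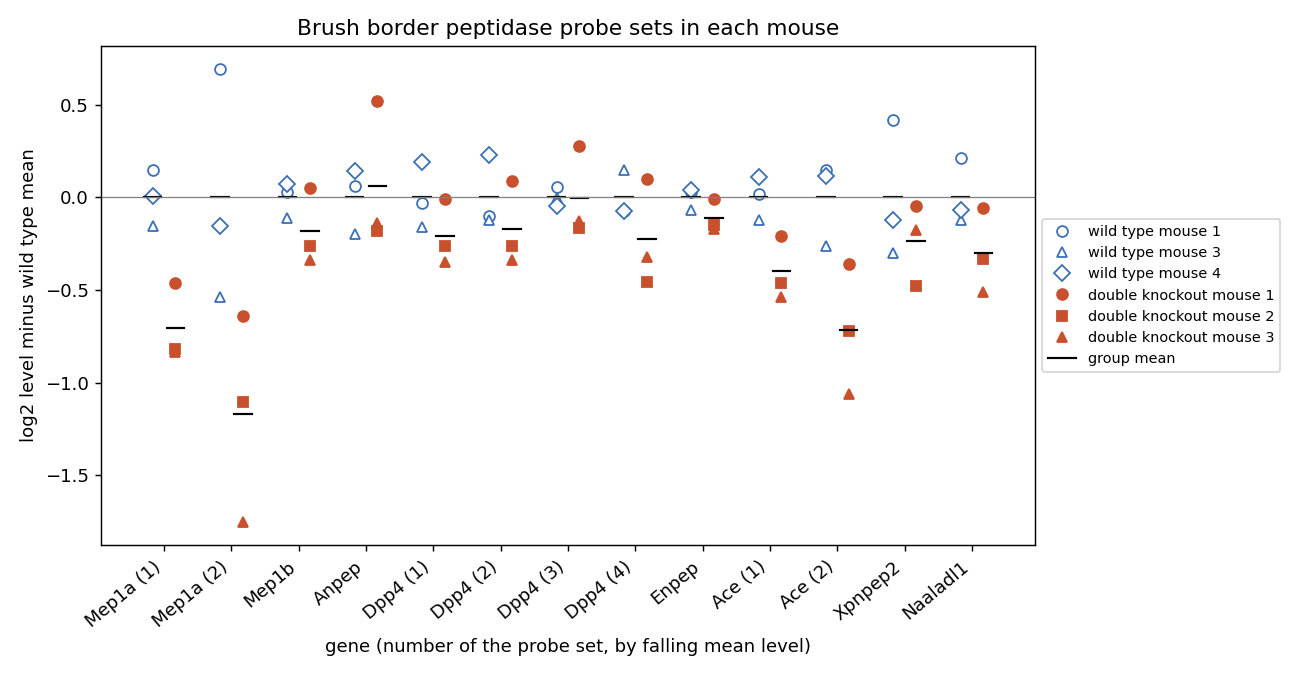
Each point is 1 mouse on 1 probe set, as the log2 level minus the mean of the 3 wild type mice (open symbols, wild type; filled symbols, double knockout; bars, group means), with probe sets of a gene numbered by falling mean level. The filled symbols lie below all open ones on both Mep1a and both Ace probe sets, and double knockout mouse 1 is the highest filled symbol on all 13.

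The targeted genes were low in all 3 double knockout mice. The log2 level of Ifrd2 averaged 8.38 ± 0.21 (SD, n = 3) in the wild type group against 2.66 ± 0.08, at least 20.8-fold lower with levels under 4 set to 4. Ifrd1 had 9.92 ± 0.08 and 5.30 ± 0.83, with 6.27 in double knockout mouse 1 and 4.80 and 4.85 in mice 2 and 3. Whether these probe sets lie within the deleted parts is not given in the sources used here. None of the 9 peptidase genes lies on a chromosome that carries Ifrd1 or Ifrd2. The labelled tissue was checked against markers: the enterocyte markers were bright (wild type means of 12.02 to 14.21 over 10 genes). Of 6 ileum markers measured, Fabp6, Slc10a2 and Fgf15 did not pass the filter on dim probe sets. The 3 tested were not dim, with wild type means of 11.86 for Cubn, 10.73 for Slc51a and 9.54 for Slc51b, so the ileum list was not absent as a whole. Cubn fell (-0.78, limma adjusted p = 0.0186), and Slc51a and Slc51b did not pass. The filter was also not passed by any of the 6 pancreatic acinar markers measured.

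Meprins are zinc endopeptidases that cut peptides and matrix proteins at the apical surface; the alpha subunit is held at the membrane through the beta subunit encoded by Mep1b. On the brighter Mep1a probe set (1450719_at) the log2 level was 9.44, 9.14 and 9.30 in wild type mice 1, 3 and 4, and 8.84, 8.48 and 8.46 in double knockout mice 1, 2 and 3. Every double knockout value was below every wild type value, and the gap between the nearest pair was 0.31. The means were 9.30 ± 0.15 (SD, n = 3) and 8.59 ± 0.21, a difference of -0.70 ± 0.14 (SE) with a 95% interval of -1.03 to -0.38 (limma adjusted p = 0.0438). This is a 1.63-fold lower level, with an interval of 1.30 to 2.05.

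The other Mep1a probe set (1447252_s_at, a type whose probes can match more than 1 transcript) was dimmer and more scattered. It read 7.71, 6.48 and 6.86 in the wild type mice and 6.37, 5.91 and 5.26 in the double knockout mice in the same order. The groups again did not overlap, but the nearest pair was only 0.10 apart and wild type mouse 1 stood well above the other two. The difference was -1.17 ± 0.38 (SE), with an interval of -2.08 to -0.25, and it did not pass (limma adjusted p = 0.119).

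The Mep1a call rested on nearly every mouse. Its adjusted p by limma was 0.124, 0.0702 and 0.139 without wild type mouse 1, 3 or 4, and 0.0861 and 0.129 without double knockout mouse 2 or 3, while without double knockout mouse 1 it was 0.0499; the difference stayed between -0.83 and -0.63. It was also above the threshold when dim probe sets were kept (0.0619), when both Mep1a probe sets were averaged (difference -0.94, adjusted p = 0.0658), when the number of the mouse was a block (0.157), and with the RNA quality measure described further on as a covariate (0.223).

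Mep1b, the beta subunit, did not pass. Its levels were 12.94, 12.80 and 12.98 in wild type mice and 12.96, 12.65 and 12.57 in double knockout mice. Double knockout mouse 1 lay among the wild type values and the other two below them. The difference was -0.18 ± 0.12 (SE), with an interval of -0.48 to 0.12 (limma adjusted p = 0.386).

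Because both genes encode subunits of 1 enzyme, the difference between their changes was examined within each array. Relative to the wild type mean of that difference, Mep1a minus Mep1b stood at 0.12, -0.05 and -0.07 in wild type mice 1, 3 and 4, and at -0.51, -0.56 and -0.50 in double knockout mice 1, 2 and 3. The double knockout values lay close together and apart from the wild type values. The shift was -0.52 on the log2 scale, with SDs of 0.10 and 0.03 (n = 3 each). A two-sided exact permutation test gave p = 0.1, the smallest that 3 against 3 arrays allow, and the same value after adjustment over the 7 comparisons of Mep1a with the other genes. All 7 gave this value. Mep1a was already the lowest gene on these same arrays, so the p gives no support for a difference between the subunits.

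The shift of Mep1a against each of the other 6 genes was also negative in every double knockout mouse. It ran from -0.30 against Ace to -0.77 against Anpep, and the groups overlapped in none of the 7 comparisons. Mep1a has the lowest difference of the 8 genes, so the direction of all 7 shifts was fixed by that choice and they are given as a description.

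**Figure D2:**
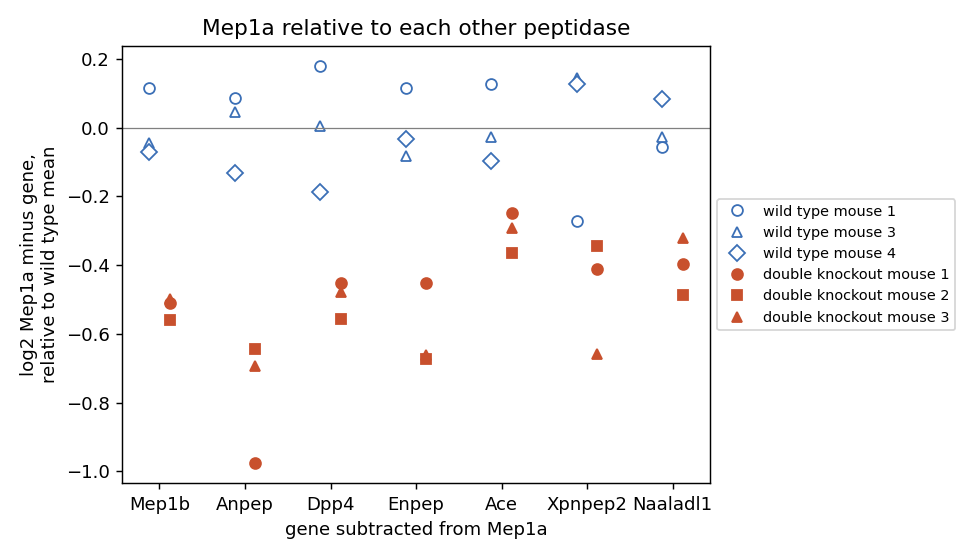
Each point is 1 mouse: the log2 level of Mep1a minus that of the gene on the horizontal axis (brightest probe set of each), relative to the mean of the 3 wild type mice (open, wild type; filled, double knockout). The shift against Mep1b is nearly equal in the 3 double knockout mice, between -0.56 and -0.50, while that against Anpep is largest in double knockout mouse 1.

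Ace, angiotensin-converting enzyme, removes dipeptides from the carboxyl end of peptides at the brush border; it is also known for its role on endothelial cells. On its brighter probe set (1427034_at) the log2 level was 11.53, 11.39 and 11.62 in wild type mice 1, 3 and 4, and 11.30, 11.05 and 10.97 in double knockout mice 1, 2 and 3. The groups did not overlap, with 0.08 between the nearest pair. The difference was -0.40 ± 0.12 (SE), a level 1.32-fold lower with an interval of 1.09 to 1.61, and it did not pass (limma adjusted p = 0.0950; 0.0442 with an intensity trend in the variance prior, the 1 setting in which it passed).

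The other Ace probe set (1451911_a_at) read 9.06, 8.65 and 9.03 in wild type and 8.55, 8.19 and 7.85 in double knockout mice. The order of the mice matched that of the brighter probe set within the double knockout group, and the gap between the groups was 0.10. The difference was -0.71 ± 0.20 (SE), with an interval of -1.19 to -0.24 (limma adjusted p = 0.0880), so the probe sets of Ace had the same direction and sizes whose intervals overlapped. Of the 5 endothelial markers tested, 0 passed by limma and 0 had an unadjusted p under 0.05; their median difference was 0.26, and the log2 of their summed level ranged from 6.69 to 7.34 in wild type and from 7.01 to 7.73 in double knockout mice. The endothelial marker Emcn did not pass the filter, and the part of endothelial cells in the Ace values was not tested.

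The bases before the annotated starts of Mep1a and Ace are shown because these are the genes whose groups did not overlap. They are RefSeq sequence of build GRCm38.p6, 250 bases each, 5′ to 3′ on the strand of the gene, at chr17:43502774-43503023 (minus strand) for Mep1a and chr11:105967698-105967947 (plus strand) for the first Ace start in the table.
Mep1a: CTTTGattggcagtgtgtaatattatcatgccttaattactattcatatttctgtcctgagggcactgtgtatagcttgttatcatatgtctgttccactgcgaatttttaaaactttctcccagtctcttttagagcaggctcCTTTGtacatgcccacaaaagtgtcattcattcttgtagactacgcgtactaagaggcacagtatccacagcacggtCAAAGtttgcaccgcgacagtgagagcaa
Ace: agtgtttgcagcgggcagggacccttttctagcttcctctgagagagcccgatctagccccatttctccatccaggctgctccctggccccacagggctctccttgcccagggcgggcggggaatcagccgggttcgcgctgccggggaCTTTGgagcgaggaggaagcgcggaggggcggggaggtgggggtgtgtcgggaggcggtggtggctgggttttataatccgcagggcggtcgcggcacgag
Capitals mark CAAAG or its reverse complement, the first letters of the binding sequence of the enterocyte factors HNF4A and HNF4G, searched on both strands. It occurred 3 times before Mep1a, with its leftmost base 250, 106 and 29 bases before the start, and once before this Ace start, 101 bases before it. A second annotated Ace start, at chr11:105974939-105975188 and not printed, has 3 matches and 58.0% G and C. Members whose groups overlapped have them too, with 4 before Enpep, 2 before Dpp4, 1 before Xpnpep2 and 0 before Anpep. Mep1b and Naaladl1, whose groups also overlapped, were not searched. The count does not separate Mep1a and Ace from the overlapping members that were searched. The letters are common: 48.6% of 32841 upstream stretches of the same length hold them. The longer CAAAGTCCA, which contains CAAAG, the HNF1 half-site GTTAAT, the sequence TTTATG known for CDX factors and the sequence AGATAA known for Gata4 were not in either stretch; they occur in 0.384%, 6.43%, 10.8% and 9.99% of all stretches. The printed stretches hold 41.6% G and C before Mep1a and 67.2% before Ace. A match of letters is a description of the sequence and was not tested as a site.

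Naaladl1, a relative of the glutamate carboxypeptidase Folh1, had the next smallest p. Its log2 level was 11.94, 11.61 and 11.66 in wild type mice 1, 3 and 4, and 11.67, 11.40 and 11.22 in double knockout mice 1, 2 and 3. The groups overlapped only through double knockout mouse 1, which lay between the wild type mice. The difference was -0.30 ± 0.15 (SE), with an interval of -0.66 to 0.05 (limma adjusted p = 0.238).

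Dpp4 (CD26) removes dipeptides ending in proline or alanine from the amino end and is also known for inactivating incretin hormones. Its 4 probe sets gave differences of -0.21 ± 0.13 (SE) on 1416697_at, -0.17 ± 0.15 on 1459973_x_at, -0.0054 ± 0.13 on 1438279_at and -0.23 ± 0.16 on 1441342_at, with limma adjusted p-values between 0.360 and 0.984. On the brightest of them, 1416697_at, wild type mice 1, 3 and 4 read 11.98, 11.85 and 12.20, and double knockout mice 1, 2 and 3 read 12.00, 11.75 and 11.66. Double knockout mouse 1 lay inside the wild type range and the other two below it, and the 95% interval of the difference, -0.53 to 0.11, holds a 1.44-fold lower level at one end. Dpp4 is also carried by T cells: of 3 T cell markers tested, 0 passed by limma and 0 had an unadjusted p under 0.05 (median difference 0.04). The log2 of their summed level ranged from 8.91 to 9.27 in wild type and from 8.54 to 9.53 in double knockout mice, Cd3e and Cd2 did not pass the filter, and the part of T cells in the Dpp4 values was not tested.

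None of the 3 aminopeptidases passed by limma or had an unadjusted p under 0.05. Enpep, aminopeptidase A, which removes acidic residues, read 13.33, 13.23 and 13.34 in wild type mice 1, 3 and 4, and 13.29, 13.15 and 13.13 in double knockout mice 1, 2 and 3. Its interval was the narrowest of the 13, -0.32 to 0.10 around a difference of -0.11 ± 0.09 (SE, limma adjusted p = 0.456). That interval reaches to a 1.25-fold lower level. The interval of Mep1a, the gene with the lowest difference, ran from 1.30 to 2.05 on its brighter probe set. On the other Mep1a probe set it ran from 1.19 to 4.24 and so overlapped that of Enpep. The genes differ in brightness (wild type means of 13.3 for Enpep and 9.30 for Mep1a), and its part in the fold values was not tested. With the enterocyte marker mean subtracted the Enpep difference was 0.04.

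Anpep, aminopeptidase N (CD13), which removes neutral residues, was the 1 member with a positive difference, though its sign depended on the fit. It read 12.13, 11.87 and 12.21 in wild type mice and 12.59, 11.89 and 11.93 in double knockout mice. Double knockout mouse 1 was above every wild type mouse and the other two were near the lowest of them. The difference of 0.07 ± 0.21 (SE; limma adjusted p = 0.856) had an interval of -0.42 to 0.56, and it turned to -0.16 without double knockout mouse 1, to -0.03 without wild type mouse 3 and to -0.0063 with the RNA quality covariate. Anpep is also found on myeloid cells: of the 3 macrophage and dendritic cell markers tested, 0 passed by limma and 0 had an unadjusted p under 0.05, with a median difference of 0.26. The log2 of their summed level ranged from 11.16 to 11.85 in wild type and from 11.28 to 11.81 in double knockout mice, Cd68, Itgax and Cd14 did not pass the filter, and their part in the Anpep values was not tested.

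Xpnpep2, the membrane-bound aminopeptidase P, releases residues that precede proline. It read 7.15, 6.44 and 6.61 in wild type mice and 6.68, 6.26 and 6.56 in double knockout mice. Wild type mouse 1 stood above the other 5 mice, which were mixed. The difference was -0.23 ± 0.21 (SE), with an interval of -0.73 to 0.26 (limma adjusted p = 0.498), and it was -0.02 without wild type mouse 1.

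**Figure D3:**
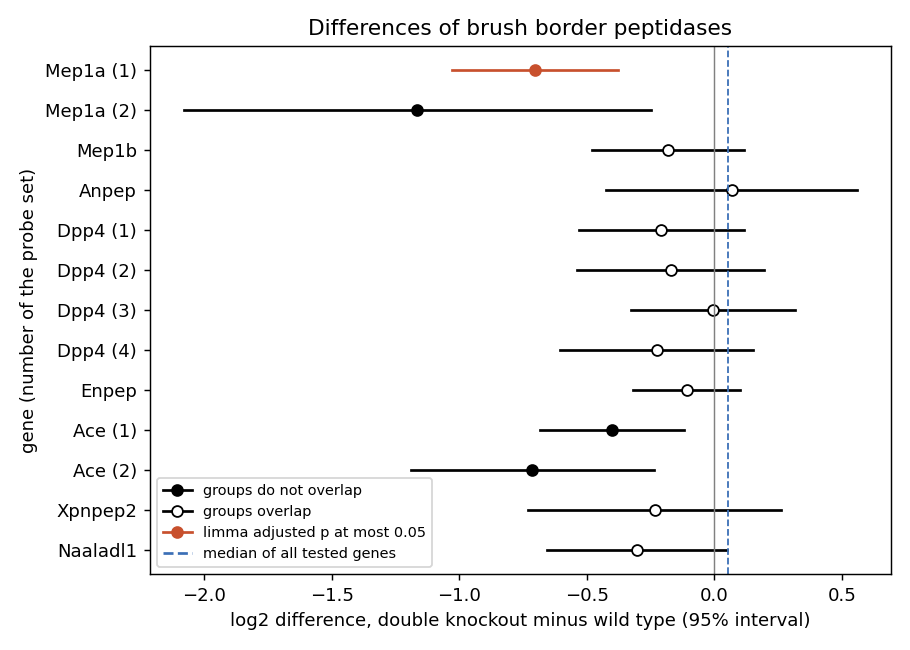
The log2 difference of each probe set, double knockout minus wild type, is drawn with limma's 95% interval; filled points mark groups that do not overlap, the coloured point passed the adjusted threshold, and the dashed line is the median of all tested genes (0.05). The intervals of both Mep1a and both Ace probe sets lie below 0 and the other 9 include it.

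The same mice were often at the end of their group. Double knockout mouse 1 was the highest double knockout mouse on 13 of 13 probe sets, and mouse 3 was the lowest on 9 and mouse 2 on 4. Among wild type mice, mouse 3 was the lowest on 11 and mouse 4 on 2, while the highest was mouse 1 on 6, mouse 4 on 6 and mouse 3 on 1. Averaged over the 8 genes, the deviation from the wild type mean was 0.11, -0.16 and 0.04 in wild type mice 1, 3 and 4, and -0.03, -0.37 and -0.38 in double knockout mice 1, 2 and 3, so double knockout mouse 1 lay between wild type mice 3 and 4. The probe sets share arrays, so their agreement within a mouse is not independent evidence.

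The RNA quality measure was the log2 difference between the 3′ and 5′ control probe sets of Actb and Gapdh, which grows with degradation or short labelled products. It was 0.35, 0.49 and 0.36 in wild type mice 1, 3 and 4, and 0.60, 0.41 and 0.61 in double knockout mice 1, 2 and 3. The mean was higher in double knockout mice by 0.14 and the groups overlapped (two-sided exact permutation p = 0.2, where 0.1 is the smallest possible). Its part in the peptidase values was not tested beyond the fit with it as a covariate. With it as a covariate the difference on the brighter Mep1a probe set was -0.70 ± 0.20 (SE). That on the other Mep1a probe set was -0.82 ± 0.51, beside -1.17 ± 0.38 without the covariate. Over the whole array 5 probe sets were higher and 12 lower with the covariate, against 458 and 347 without it. Subtracting the enterocyte marker mean gave 1911 and 305.

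Across the 6 arrays, the genes whose pattern was most like that of Mep1a were Cep95 (Pearson r = 0.996), Wbp2 (r = 0.996) and Mtus1 (r = 0.994). They were chosen as the highest of 9673 correlations, and 108 genes had r above 0.95, so with 6 arrays many patterns are alike. Among the peptidases r with Mep1a ran from 0.23 for Anpep to 0.96 for Ace over the same 6 arrays, which include the difference between the groups. These values describe the arrays and were not tested.

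Other genes of protein digestion were examined in lists, each gene by its brightest probe set. Of the 11 other membrane peptidases tested, 0 passed by limma, 1 had an unadjusted p under 0.05 with a higher level and 2 with a lower one (median difference -0.05). The one with the smallest p was Mme (neprilysin, an endopeptidase) at -0.36 ± 0.10 (SE, limma adjusted p = 0.0814). Among the 25 intracellular peptidases, which split the peptides after uptake or during turnover, 1 fell, 0 rose and 24 did not pass (median -0.04). The 1 that fell was the carnosine dipeptidase Cndp1, from 9.07 ± 0.19 (SD, n = 3) to 7.80 ± 0.23, with the groups not overlapping (limma adjusted p = 0.0169); its product is best known as a secreted enzyme.

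Of 17 peptide and amino acid transporters, 2 fell, 0 rose and 15 did not pass (median -0.09). Those that fell were Slc6a20a and Slc6a20b, of the imino acid transporter family, which lie on the chromosome that carries Ifrd2. Slc6a20a had a difference of -0.92 ± 0.10 (SE, limma adjusted p = 0.0151), and Slc6a20b, with a wild type mean of 5.11, was under the minimum of 4 on all double knockout arrays (limma adjusted p = 0.000629). The peptide transporter Slc15a1 had a difference of -0.39 ± 0.14 (SE; limma adjusted p = 0.144). Of 8 other brush border hydrolases, 1 fell and 0 rose, with a median of -0.22 that is close to that of the peptidases; the 1 that fell was Treh, which splits trehalose (-0.73 ± 0.12, limma adjusted p = 0.0303) and lies on the same chromosome as Ifrd2. Over all tested genes, 1.60% were called lower and 3.18% higher, 4.79% in all. In the fits that left out 1 mouse, between 1 and 3 genes of the 6 lists of digestion, microvillus and transcription factor genes were called lower, against 5 with all mice.

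The microvillus itself was measured through 20 genes of its actin core and adhesion complex. None passed by limma, 1 had an unadjusted p under 0.05 upward and 2 downward, and the median difference was -0.05. Villin, Vil1, which bundles the actin core, averaged 13.11 ± 0.01 (SD, n = 3) in the wild type and 13.07 ± 0.02 in the double knockout group. The log2 of the summed level of the list ranged from 15.91 to 15.97 in wild type and from 15.90 to 15.97 in double knockout mice, so these groups overlapped. The summed level of the 8 peptidase genes overlapped too, from 14.9 to 15.1 in wild type and from 14.72 to 15.08 in double knockout mice. For other membrane peptidases the sums were lower without overlap, 13.64 to 13.74 in wild type against 13.43 to 13.54 in double knockout mice. Intracellular peptidases (14.92 to 14.97 against 14.72 to 14.84) and transporters (14.75 to 14.94 against 14.6 to 14.72) did likewise. So did other brush border hydrolases (15.2 to 15.33 against 15.02 to 15.08), while the sums of enterocyte transcription factors overlapped.

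Lists of cell type markers were compared between the groups in the same way. All 10 enterocyte markers had negative differences (median -0.10); 0 passed by limma and 3 had an unadjusted p under 0.05. The log2 of their summed level ranged from 16.94 to 16.99 in wild type and from 16.82 to 16.87 in double knockout mice, with no overlap. The subtraction of the enterocyte marker mean, which was added after the data were seen, gave a Mep1a difference of -0.56 ± 0.13 (SE, limma adjusted p = 0.0420). The unadjusted p of Mep1a by limma was 0.00402 with the subtraction and 0.00158 without it. The adjusted p depends on the p-values of all probe sets, and the subtraction gave 1911 higher and 305 lower calls, against 458 and 347.

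Of 9 markers of crypts and dividing cells, 2 rose and 0 fell (median 0.35): the mitotic kinase Cdk1 had a difference of 0.60 ± 0.10 (SE, limma adjusted p = 0.0295) and the topoisomerase Top2a one of 0.55 ± 0.10 (adjusted p = 0.0344 by limma). At an unadjusted p under 0.05 by limma, 5 of the 9 were higher and 0 lower. The log2 of the summed level of the 9, which weighs bright genes most, overlapped between the groups. It ranged from 12.84 to 13.13 in wild type and from 13.10 to 13.28 in double knockout mice. The mean of their log2 levels did not overlap, from 8.25 to 8.40 in wild type and from 8.51 to 8.83 in double knockout mice. All 6 fibroblast markers had positive differences (median 0.49), with 0 passing by limma and 2 at an unadjusted p under 0.05. Their summed levels overlapped as well, from 11.55 to 12.26 in wild type and from 12.20 to 12.59 in double knockout mice. Both tuft cell markers tested had negative differences (median -0.78): Rgs13, a regulator of G protein signalling, fell by 1.00 ± 0.17 (SE, limma adjusted p = 0.0321) and Avil had -0.55 ± 0.18 (adjusted p = 0.123 by limma). The log2 of the summed tuft markers ranged from 7.18 to 7.61 in wild type and from 6.23 to 6.70 in double knockout mice, while Dclk1, Trpm5 and Pou2f3 did not pass the filter.

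No Paneth, goblet, enteroendocrine, plasma and B cell or smooth muscle marker passed by limma. Their median differences were -0.08, -0.06, 0.14, 0.18 and 0.04, and at an unadjusted p under 0.05 there was 1 lower enteroendocrine and 1 higher plasma and B cell marker. The fibroblast, crypt, tuft cell, endothelial, and macrophage and dendritic cell medians were farther from 0 than that of the peptidases. The part of these cells in the peptidase values was not tested.

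Among 12 enterocyte transcription factors, 1 fell and 0 rose. Hnf4g, a nuclear receptor of the differentiated enterocyte, read 10.60, 10.37 and 10.68 in wild type mice 1, 3 and 4, and 9.89, 9.91 and 9.50 in double knockout mice 1, 2 and 3. The groups did not overlap, and the difference was -0.78 ± 0.15 (SE, limma adjusted p = 0.0412). Its relative Hnf4a had 0.11 ± 0.08 and did not pass (adjusted p = 0.392 by limma). No relation between these factors and the peptidases was tested.

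**Figure D4:**
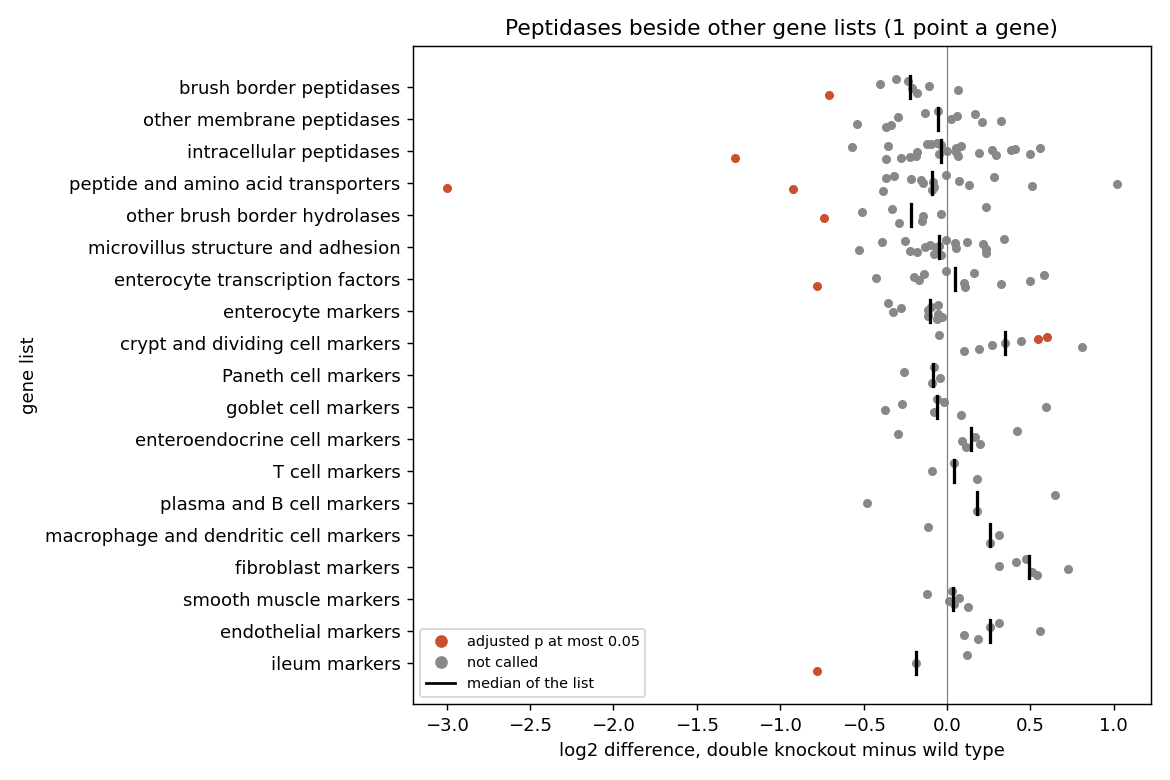
Each point is 1 tested gene as its log2 difference, double knockout minus wild type, on its brightest probe set; black bars are list medians and coloured points passed the adjusted threshold; lists with fewer than 3 tested genes (tuft and pancreatic acinar cells) are not drawn. The brush border peptidases have a median of -0.22, beside -0.05 for microvillus genes and 0.49 for fibroblast markers, and 1 of their 8 points, Mep1a, is coloured.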

How the data were processed

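The authors deposited a log2 value for every probe set on each array, GCRMA (2.18.0) being the tool in the submitters' processing notes; no source used here gives its settings, and the log2 scale was read from the values. GCRMA models background from the probes' base content and puts arrays on a common distribution, so dim levels hold little information; array medians lay between 2.87 and 2.90, and the number of arrays limits the precision. RNA was 500 ng per sample, per the labels.

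Of the probe sets, 34958 had 1 gene symbol, 932 several and 9211 none; symbols were updated through the GRCm38.p6 gene table. Leaving out 64 control probe sets, 18013 exceeded 4 on at least 3 arrays and were fitted by limma 3.58.1 (lmFit, eBayes; R 4.3.3) with genotype alone; p-values are two-sided and Benjamini-Hochberg adjusted over all of them, with a threshold of 0.05. Intervals are limma's 95%. The script was checked on simulated data. No array was a copy: any pair within a group was more than 0.1 apart on 62.5% or more of the probe sets. The labels name separate mice.

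Most genes were named by rule: all members, the targeted genes and the 3 genes most like Mep1a. Of a list, up to 3 passing genes (or the 1 with the smallest p) were named where a result turned on them. Outside the rule, Slc15a1, Vil1 and Hnf4a were named for their roles after their values were seen. Avil, Slc51a, Slc51b and markers that did not pass the filter were also named outside it, beside other markers of their lists. The members and lists were chosen with earlier results of these data known. Alternatives covered the filter, a floor, normalization, weights for arrays, the variance prior, RNA quality, the mouse number, the probe set per gene and each mouse. Figures were drawn with matplotlib 3.10.9.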

Additional observations from a re-analysis of the deposited data

How the results depend on the processing

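Each difference of the 8 genes was refitted under 18 alternatives, 144 values in all: 130 kept their direction and side of the threshold, 9 lost the Mep1a call, 1 gained the Ace call and 4 changed sign. The sign changes were those of Anpep (-0.0063 with the RNA quality covariate, -0.03 without wild type mouse 3, -0.16 without double knockout mouse 1; -0.16 to 0.19 over all mice left out) and Enpep (0.038 with the enterocyte marker mean subtracted); the cause was not tested. Member probe sets called lower numbered 0 without the filter, with the block and with the covariate, 2 with an intensity trend, and 0 to 1 when a mouse was left out. The member median was -0.074 with the enterocyte marker mean subtracted, which moved the median of all genes from 0.05 to 0.20, and -0.33 to -0.16 without a mouse. Over all probe sets, higher calls numbered 265 without the filter, 710 with the stricter filter, 918 with the trend, 2 with the block, 5 with the covariate and 1911 with the marker mean subtracted; lower calls numbered 207, 727, 11 and 12 without the filter and with the trend, the block and the covariate. Without a mouse they ranged from 11 to 196 and from 21 to 239; fewer arrays leave fewer degrees of freedom. In the 6 lists of digestion, microvillus and transcription factor genes, higher calls rose from 0 to 3 with the stricter filter, the trend or averaged probe sets and to 9 with the marker mean subtracted; lower calls, 5 at first, numbered 13 with the trend and 1 with the block or the covariate, and 1 to 3 without a mouse (higher, 0 to 0). Ifrd1 lost its call with the block (-4.36, limma adjusted p = 0.103) and the covariate (-4.93, adjusted p = 0.0777).

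Mice 1 and 3 of both groups share a number, which the labels do not explain. Deviations from the group means correlated at 0.02 for mouse 1 and 0.30 for mouse 3, against -0.26 to 0.26 for other pairs. The value for mouse 3 lies above that range, and so few same-numbered pairs cannot settle whether the numbers mark pairs. The main fit did not use them. The replicate block, which rests on the 4 arrays of mice 1 and 3, gave Mep1a -0.64 (limma adjusted p = 0.157).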
